A study of Mus musculus with 6 samples.

Results

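The genes described here serve touch and acid sensing and number 10. They are the acid-sensing ion channels Asic1, Asic2, Asic3 and Asic4, the Piezo channels Piezo1 and Piezo2, and the stomatin proteins Stom, Stoml1, Stoml2 and Stoml3. Members were all probe sets of the array whose platform annotation names 1 gene only, that gene being on this list, which gave 17 of 45101 probe sets and all 10 listed genes. Stom had 6 probe sets, Piezo2 and Stoml3 had 2 each, and each other gene had 1. The tissues compared were dorsal root ganglia (DRG), where sensory neurons have their cell bodies, and spinal cord (SC), both from lumbar levels of untreated male C57BL/6J mice aged 3 months, with left and right sides combined. There were 3 arrays of DRG and 3 of SC, and each array carried RNA of 4 mice pooled. The submitters call the samples independent, so a p-value measures the spread between pools, not between animals.

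Acid-sensing ion channels are sodium channels of the degenerin family that open when the outside of a cell turns acidic, and each channel is a trimer of like or mixed subunits. Piezo channels open when the membrane is stretched. Piezo2 is the main channel of light touch and body position sense, and Piezo1 is best known in blood vessels and red cells. Stomatins sit at the inner face of membranes through a prohibitin domain, and several of them bind acid-sensing channels and change their currents.

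In DRG, 6 of the 10 genes were called higher than in SC, beside 32.3% of all 18192 genes tested, and none was called higher in SC. A call is an adjusted p under 0.05 in limma, taken for a gene on its probe set with the highest mean. They were Asic3, Piezo2, Stoml1, Stom, Asic2 and Stoml2. Asic1 was bright in both tissues with no difference past the threshold, while Asic4, Piezo1 and Stoml3 stayed within the signals of genes known from other organs. Of the 17 probe sets, 10 were called, beside 38.0% of all 34938 probe sets tested. All 10 were higher in DRG, a direction called for 27.0% of all probe sets, while 11.1% were called higher in SC. The 10 were also those whose arrays did not overlap between tissues, which held for 48.1% of all probe sets. Of all 18192 genes, 42.3% were called in either direction, and in 51.7% the arrays did not overlap, as in 6 of the 10 members. With a log2 difference of at least 1 as a further condition, 4 of the 10 genes passed beside 16.4% of all genes, and 6 of the 17 probe sets beside 15.2%. The median log2 difference of the 10 genes was 0.77, beside 0.18 over all genes.

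**Figure D1:**
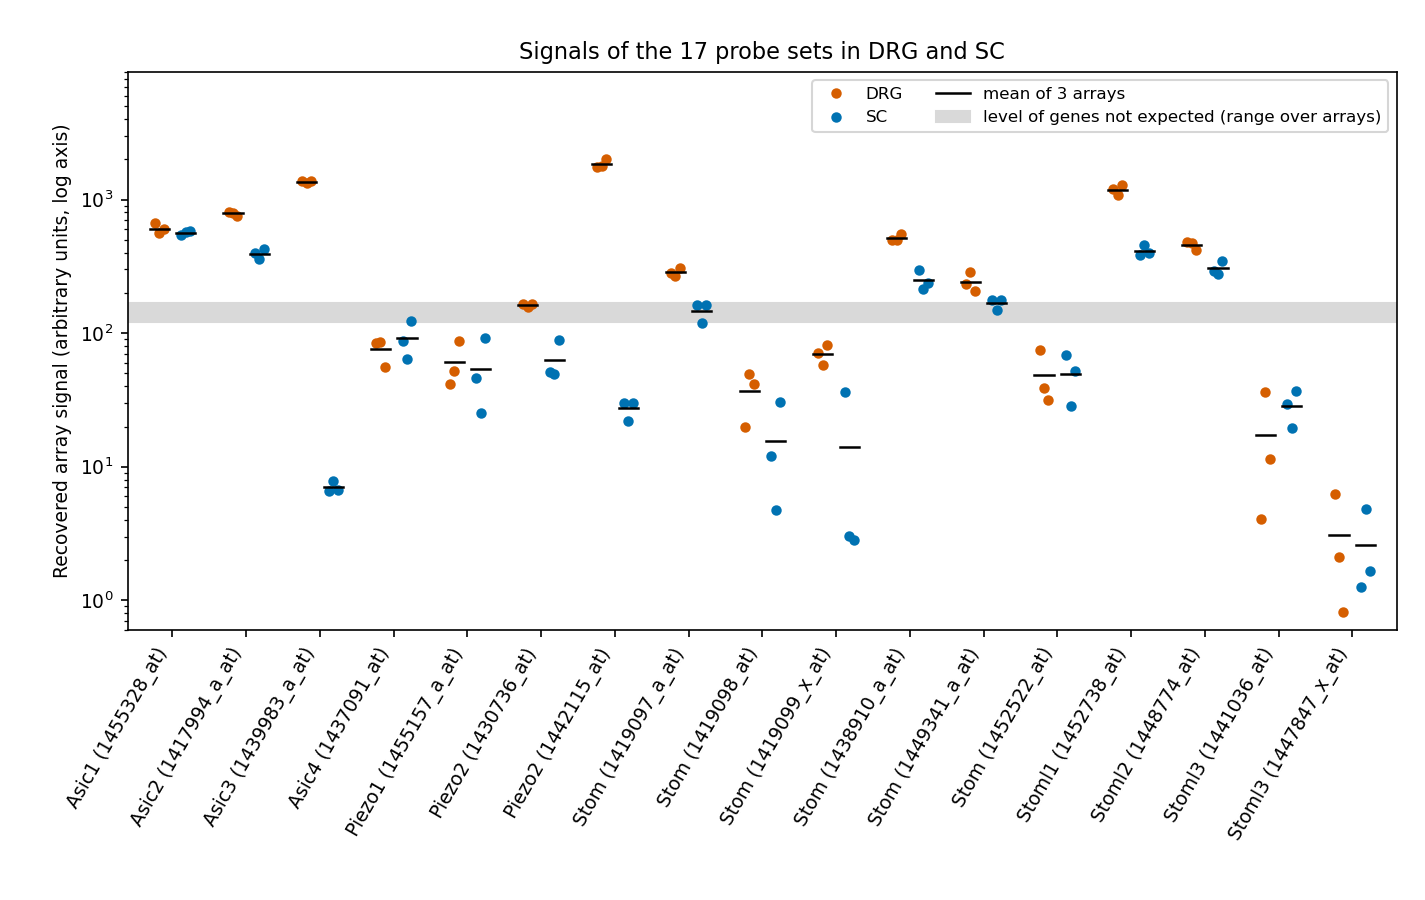
Signal of each probe set on each array, on a log axis in arbitrary units, with DRG left of SC, points for arrays and bars for means of 3. Asic3 and the Piezo2 probe set 1442115_at lie between 1325 and 2003 in DRG and between 6.62 and 30.2 in SC, where 2 of the Asic3 points are upper limits. The grey band is the off-tissue level, from 122 to 169 over the arrays, and no signal of Asic4, Piezo1 or Stoml3 is above the level of its own array. Signals of different probe sets are not on a common scale.

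A signal here is the brightness of a probe set after MAS5, recovered from the deposited ratios and kept on the authors' array scaling. The unscaled signals are those before the authors divided each array by a factor of its own, with the scaling inside MAS5 kept. Log2 differences are DRG minus SC of log2(signal + 16), so those of dim genes are smaller than the change in signal. The 95th percentile of 53 probe sets of 41 genes known from other organs, such as liver, gut and testis, was 122 to 169 in DRG and 123 to 147 in SC, and is called the off-tissue level. Where 1 tissue was at or under it on all 3 arrays, the fold is only a lower bound. It sets the brighter tissue's log2 mean against the log2 mean of the off-tissue levels of the 3 dim arrays. The fitted log2 difference of such a gene depends on the 16 added to each signal. Genes that define the tissues mostly followed their labels. All 4 measured nociceptor genes were called higher in DRG, and 7 of 8 genes of spinal neurons were called higher in SC. The exception was Chat, with mean signals of 82.0 in DRG and 101 in SC, not above the off-tissue level on any array. A signal under this level therefore does not show that a gene is absent from a tissue. In tissue RNA, fewer cells of a type and less RNA per cell cannot be told apart.

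Asic3, the subunit behind the acid current of many sensory neurons, was bright in DRG and not measurable above the off-tissue level in SC. Its signals were 1385, 1325 and 1380.1 in DRG, against 6.62, 7.87 and 6.68 in SC. The first and the last of the SC signals stood at the lowest deposited value and are upper limits. The groups lay far apart, and all 3 SC signals were under the off-tissue level. With a mean of 1363 ± 33.3 in DRG (SD, n = 3), Asic3 was at least 10.1-fold higher in DRG than in SC. The fitted log2 difference was 5.90 with a standard error of 0.13 (limma adjusted p = 7.26e-09), and between 4.33 and 7.60 under the alternatives run, all called.

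Asic2, whose subunits join those of Asic1 and Asic3 in mixed channels, was higher in DRG and well measured in both tissues. Its signals were 809, 798 and 752 in DRG, against 395, 359.9 and 426 in SC. The groups did not overlap, and the ratio of the mean signals was 2.00. The log2 difference was 0.97 with a standard error of 0.09 (limma adjusted p = 1.79e-05), and it was 0.60 under quantile normalization and 0.61 on the unscaled signals, called in both. The probe set is of the kind that matches several transcripts of a gene, so the splice forms of Asic2 were not told apart.

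Asic1, the main acid-sensing subunit of central neurons, had signals of 662, 560.3 and 597 in DRG, against 547, 572 and 579 in SC. The groups overlapped, and all 6 arrays were above the off-tissue level. The log2 difference was 0.09, with a 95% interval of -0.10 to 0.29 (limma adjusted p = 0.441). This value depended on the array scaling, because Asic1 was called higher in SC at -0.30 under quantile normalization (limma adjusted p = 0.0145) and at -0.27 on the unscaled signals (limma adjusted p = 0.0242). No direction is therefore given for Asic1.

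Asic4 makes no acid-gated current alone and was not above the off-tissue level in either tissue. Its signals were 84.9, 85.7 and 56.2 in DRG, against 87.5, 63.96 and 123 in SC. The groups overlapped. On the log2 scale the difference was -0.21, with a 95% interval of -0.82 to 0.40 (limma adjusted p = 0.602).

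Piezo2 was higher in DRG on both of its probe sets, and on both the SC signals were under the off-tissue level. On 1442115_at the signals were 1752, 1779 and 2003 in DRG, against 30.1, 22.03 and 30.2 in SC. The groups lay far apart, and Piezo2 was at least 13.7-fold higher in DRG than in SC. On the log2 scale the fitted difference was 5.42 with a standard error of 0.12 (limma adjusted p = 7.26e-09), and between 4.38 and 6.08 under the alternatives run, all called.

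The other Piezo2 probe set, 1430736_at, had signals of 164, 156 and 164 in DRG, against 51.6, 49.6 and 89.1 in SC. These groups did not overlap either, but only 2 of the 3 DRG arrays were above the off-tissue level. It was at least 1.197-fold higher in DRG than in SC, with a fitted log2 difference of 1.19 (limma adjusted p = 0.00238). As the mean of both probe sets, the fitted log2 difference of Piezo2 was 3.31. Which transcripts each probe set matches is not given in the sources used here.

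Piezo1, the channel of vessels and red cells, had 1 probe set with signals of 41.6, 51.9 and 87.9 in DRG, against 46.2, 25.1 and 91.4 in SC. The groups overlapped, and no array was above the off-tissue level. The log2 difference was 0.19, with a 95% interval of -0.68 to 1.05 (limma adjusted p = 0.759), and it turned to -0.094 on the unscaled signals. Markers of the cells known for Piezo1 were weak or mixed in these tissues. No measured erythroid gene of the 4 was above the level on any array, and of 8 endothelial genes 3 were called higher in DRG and 1 in SC, or 0 and 2 on the unscaled signals. The brightest called ones, the junction genes Cldn5 and Esam, differed by -0.59 (limma adjusted p = 0.00772) and 0.67 (limma adjusted p = 0.00503).

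Stoml1, a stomatin with a lipid transfer domain that can reduce Asic1 currents, was the stomatin with the clearest difference. Its signals were 1199, 1076 and 1286 in DRG, against 384, 454 and 396 in SC. The groups lay apart, and the mean signals were 1187 ± 106 in DRG and 411 ± 37.7 in SC (SD, n = 3 each), a ratio of 2.89. Stoml1 differed by 1.49 on the log2 scale with a standard error of 0.10 (limma adjusted p = 2.27e-06). It was 1.07 under quantile normalization and 1.13 on the unscaled signals, called in both.

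Stom, the founding member of the family and an abundant protein of red cell membranes that also dampens Asic3 currents, was measured by 6 probe sets. The one with the highest mean, 1438910_a_at, had signals of 499, 501 and 551 in DRG, against 297, 215 and 236 in SC. The groups did not overlap, and the log2 difference was 1.02 with a standard error of 0.12 (limma adjusted p = 0.000151). On 1419097_a_at the signals were 281, 268 and 307 in DRG, against 163, 118 and 161 in SC, with a log2 difference of 0.89 (limma adjusted p = 0.00108). On 1449341_a_at they were 233, 285 and 208 in DRG, against 177, 149.8 and 175 in SC. This was the smallest of the called differences of Stom, at 0.48 (limma adjusted p = 0.0302), and leaving out DRG replicate 1, DRG replicate 2 or any single SC array ended the call, with adjusted p-values up to 0.105. So did quantile normalization, at 0.33 (limma adjusted p = 0.148), and the unscaled signals, at 0.14 (limma adjusted p = 0.535).

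The other 3 probe sets of Stom were under the off-tissue level on all arrays. Among them 1419099_x_at, of the kind that can match unrelated transcripts, was called higher in DRG, with signals of 71.2, 57.5 and 81.2 in DRG, against 36.2, 3.01 and 2.81 in SC. Its log2 difference was 1.69 (limma adjusted p = 0.00782), and the SC arrays ranged widely. The probe sets 1419098_at and 1452522_at were not called, at 0.77 (limma adjusted p = 0.121) and -0.04 (limma adjusted p = 0.951). Without SC replicate 3 the value of 1419098_at was 1.09 and called (limma adjusted p = 0.0373), and without SC replicate 2 it was 0.51. The 3 probe sets of Stom above the level on all DRG arrays had ratios of mean signals of 2.07, 1.93 and 1.44.

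Stoml2, which is found mainly in mitochondria and not at the cell surface, had signals of 485, 472 and 415 in DRG, against 293, 275 and 346 in SC. The groups did not overlap, and the mean signals were 457 ± 36.9 in DRG and 305 ± 36.8 in SC (SD, n = 3 each). Stoml2 differed by 0.56 on the log2 scale with a standard error of 0.11 (limma adjusted p = 0.00307). The call was lost under quantile normalization, at 0.28 (limma adjusted p = 0.106), and on the unscaled signals, at 0.21 (limma adjusted p = 0.2).

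Stoml3, a stomatin needed for touch responses of many mouse sensory neurons, was not measurable above the off-tissue level. Its probe set 1441036_at had signals of 4.08, 36.5 and 11.4 in DRG, against 29.7, 19.6 and 36.6 in SC. The groups overlapped, and the log2 difference was -0.52, with a 95% interval of -1.33 to 0.28 (limma adjusted p = 0.302). Leaving out DRG replicate 2 moved it to -0.91, called higher in SC (limma adjusted p = 0.0348), at signals far under the level. The other probe set, 1447847_x_at, lay between 0.820 and 6.30 in DRG and between 1.25 and 4.87 in SC.

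**Figure D2:**
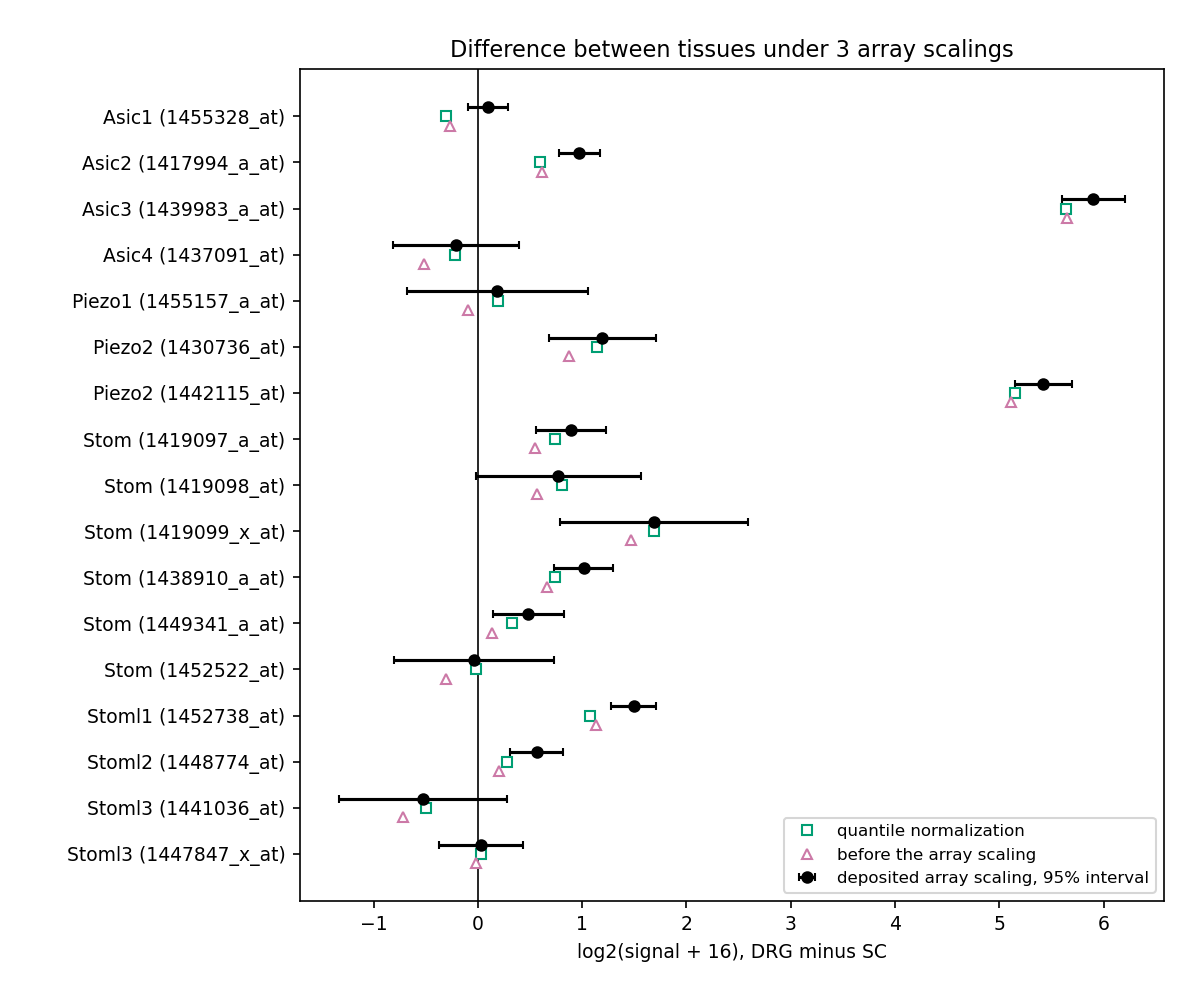
Log2 difference, DRG minus SC, of each probe set. Filled circles with 95% intervals are the array scaling as deposited, open squares quantile normalization, and open triangles the unscaled signals. Asic3 and the Piezo2 probe set 1442115_at stay above 5 under all 3 scalings, Stoml1 stays above 1, and Asic1 lies right of 0 under the first scaling and left of 0 under the other 2.

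The choice of array scaling shifted the differences, so they were also read against the median gene. These shifts were not equal, as under quantile normalization Asic1 went from 0.09 to -0.30 but Asic4 only from -0.21 to -0.22. Taking off the median over all genes therefore removes the scaling only in part. That median was 0.18 with the scaling as deposited, 0.03 under quantile normalization and -0.10 on the unscaled signals. Less the median gene, Asic2 was at 0.79, 0.57 and 0.71 in the same order. Stoml1 was at 1.31, 1.04 and 1.23, and Stom (1438910_a_at) at 0.83, 0.71 and 0.76. Stoml2 was at 0.38, 0.25 and 0.31, and Asic1 at -0.09, -0.33 and -0.16. Read this way, Asic1 lay below the median gene and Stoml2 above it under each scaling. The number of member genes called higher in DRG was 5 under quantile normalization, beside 20.7% of all genes, and 5 on the unscaled signals, beside 19.6%. Asic1 was the 1 gene called higher in SC in both, beside 16.8% and 20.3% of all genes.

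Related genes were also set against each other within each array, where an array factor cancels but for the pseudocount. The sign of a single value compares 2 probe sets and carries no meaning, so only its shift between tissues is read. With 3 arrays against 3 the smallest exact p is 0.1, so no pair could pass the threshold. All 6 pairs compared stood at that smallest p (two-sided exact permutation test, p = 0.1, and 0.1 adjusted over the pairs). In none did the tissues overlap. Each pair holds a gene that was itself called with arrays that did not overlap, so the separation repeats those calls and adds no support. The share of other gene pairs without overlap was not computed. Piezo2 minus Piezo1 was 4.65 ± 0.34 in DRG and -0.59 ± 0.57 in SC on the log2 scale (SD, n = 3 each). Asic3 minus Asic1 was 1.15 ± 0.09 in DRG and -4.66 ± 0.05 in SC. The SC side of both shifts rests on signals under the off-tissue level, as do the DRG values of Piezo1. Their sizes therefore depended on the settings, with 3.12 for the mean of the Piezo2 probe sets in place of 5.24, and 7.31 with a pseudocount of 1 in place of 5.81 for Asic3 minus Asic1.

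The other pairs gave these values. Asic1 minus Asic2 was -0.28, -0.50 and -0.32 in DRG, against 0.45, 0.65 and 0.43 in SC, a shift of -0.88. The 3 DRG values lay below all 3 SC values. Stoml1 minus Stoml2 shifted by 0.93. Asic4 minus Asic2 shifted by -1.18 and Stoml3 minus Stom by -1.54, pairs in which Asic4 and Stoml3 lay under the off-tissue level.

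**Figure D3:**
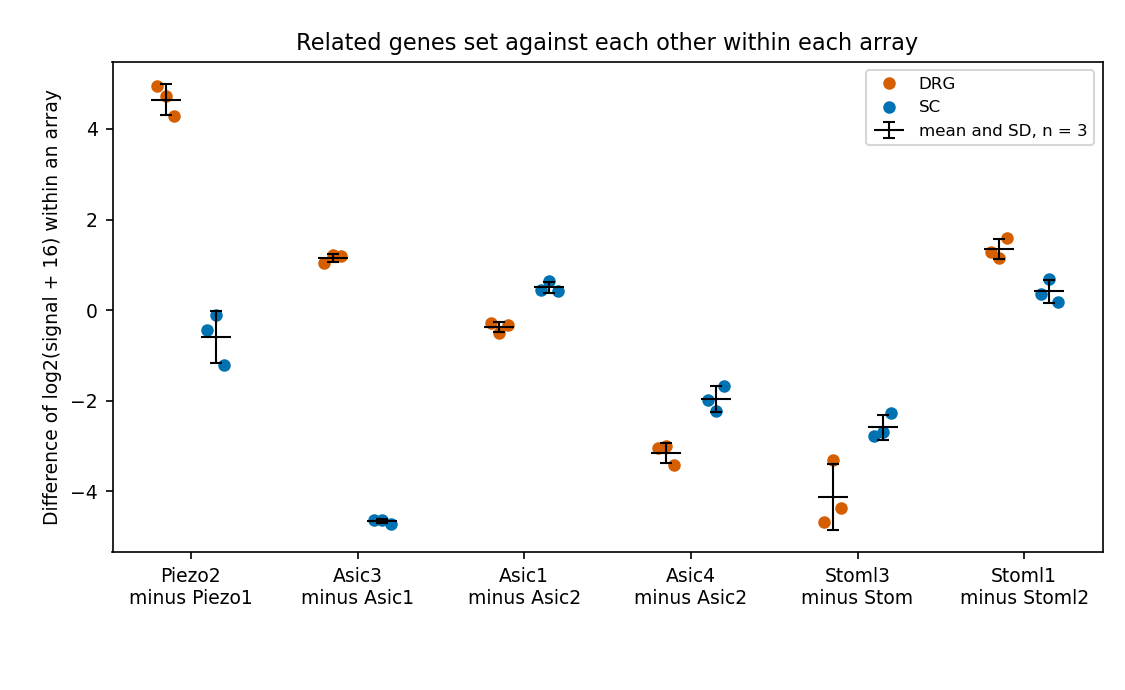
Difference between the log2(signal + 16) of 2 related genes within each array, with DRG left of SC, points for arrays, and bars for the mean and SD of 3. DRG and SC do not overlap in any of the 6 pairs, and the 2 pairs with Piezo2 and Asic3, whose SC signals lie under the off-tissue level, are plotted with shifts of 5.24 and 5.81.

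Promoter sequence is shown for 2 acid-sensing channels that differed in their tissue pattern and for 2 stomatins that were higher in DRG. Each is the 250 bases before the start given in the RefSeq table of mouse assembly GRCm38.p6, 5′ to 3′ along the gene, and other starts of these genes are not covered. Capitals mark matches, on either strand, to 6 short motifs named after the sequences.
Asic3, chr5:24413201-24413450, plus strand: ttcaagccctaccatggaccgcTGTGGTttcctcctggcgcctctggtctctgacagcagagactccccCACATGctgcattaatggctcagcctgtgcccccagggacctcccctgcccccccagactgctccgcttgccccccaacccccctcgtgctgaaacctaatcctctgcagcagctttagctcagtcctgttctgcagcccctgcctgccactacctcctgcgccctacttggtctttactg
Asic1, chr15:99691974-99692223, plus strand: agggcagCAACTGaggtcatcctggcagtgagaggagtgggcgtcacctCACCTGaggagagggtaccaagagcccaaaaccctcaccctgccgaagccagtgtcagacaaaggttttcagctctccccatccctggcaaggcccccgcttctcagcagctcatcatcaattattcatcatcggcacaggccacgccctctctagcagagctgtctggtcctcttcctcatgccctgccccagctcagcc
Stom, chr2:35337010-35337259, minus strand: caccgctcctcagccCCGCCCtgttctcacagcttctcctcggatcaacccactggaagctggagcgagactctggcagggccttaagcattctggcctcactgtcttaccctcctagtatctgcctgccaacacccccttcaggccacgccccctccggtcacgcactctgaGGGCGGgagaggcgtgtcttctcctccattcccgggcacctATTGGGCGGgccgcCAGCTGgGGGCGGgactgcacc
Stoml1, chr9:58252914-58253163, plus strand: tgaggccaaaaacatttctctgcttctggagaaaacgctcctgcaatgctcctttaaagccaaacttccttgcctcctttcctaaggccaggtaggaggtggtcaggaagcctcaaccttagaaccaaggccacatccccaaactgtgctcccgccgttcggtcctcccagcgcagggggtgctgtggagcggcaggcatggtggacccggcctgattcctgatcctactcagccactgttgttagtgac

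The motifs searched were the TATA box (TATAAA), the GC box known to bind Sp1 (GGGCGG), and the CCAAT box, spelled by its name. The others were the core that RUNX factors bind (TGTGGT), the E-box of basic helix-loop-helix factors (CANNTG), and the core of many homeodomain proteins (TAATTA). The promoters differed in what was found. The Stom promoter held 4 GC boxes, a motif found at least once in 32.7% of the 32851 promoters of the same length, with 13 CpG dinucleotides beside a median of 6, and 1 of its GC boxes overlaps a CCAAT box on the opposite strand. The Asic3 promoter held 1 RUNX core, a motif of 14.1% of promoters, and 1 E-box, a motif of 66.2%. The Asic1 promoter held 2 E-boxes and the Stom promoter 1, while the Stoml1 promoter held none of the 6 motifs. A TATA box was in none of these 4 promoters and in 12.4% of all promoters. A match of this length is a description of the letters and not a binding site.

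Relatives outside the member list were counted on 5 lists that were chosen for function. Of all genes, 32.3% were called higher in DRG and 42.3% in either direction, and the median log2 difference was 0.18. None of the other members of the degenerin family, the epithelial sodium channel genes Scnn1a, Scnn1b and Scnn1g and the channel gene Asic5, was called. Among 5 measured relatives of stomatin with the same domain, 4 were called, all with higher signals in DRG, and the median log2 difference was 1.05. Flot1 and Flot2, scaffold proteins of membrane rafts, differed by 2.04 (limma adjusted p = 6.65e-07) and 1.89 (limma adjusted p = 1.76e-07). Flot2 signals were 5972, 5159 and 5592 in DRG, against 1593, 1425 and 1455 in SC. Erlin1, of the endoplasmic reticulum, was higher at 1.05 (limma adjusted p = 0.000142), and the mitochondrial Phb2 at 0.53 lost its call under quantile normalization, at 0.06, and on the unscaled signals, at 0.16. Both of these scalings called 3 of the relatives higher in DRG and 1 in SC.

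Other mechanically gated channels, known or proposed, were split. Of 14 measured, 7 were called, 6 of them higher in DRG, beside 42.3% and 32.3% of all genes. The median log2 difference was 0.40, and the other 2 scalings gave 4 in DRG and 2 in SC. Trpa1, a receptor for irritants, was at least 6.59-fold higher in DRG (limma adjusted p = 2.48e-05). Within the Tmem63 family of stretch-gated channels the directions differed. Tmem63c signals were 161, 206 and 176 in DRG, against 59.1, 88.4 and 28.9 in SC, while Tmem63a signals were 218, 189 and 244 in DRG, against 472, 630.0 and 533 in SC. Tmem63c was at least 1.34-fold higher in DRG, with a fitted log2 difference of 1.47 (limma adjusted p = 0.00347). The difference of Tmem63a was -1.26 (limma adjusted p = 5.67e-05). Tmem120a, proposed as a channel of pain-sensing cells, was at least 1.55-fold higher in DRG (limma adjusted p = 0.00204).

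Of 8 measured genes of other proton sensors, 4 were called, 3 of them higher in DRG, beside 42.3% and 32.3% of all genes. The median was 0.27, beside 0.18 over all genes. Trpv1, the capsaicin receptor, which acid also opens, was at least 11.5-fold higher in DRG (limma adjusted p = 5.82e-07). Pacc1, a proton-activated chloride channel, was at least 1.18-fold higher in DRG, with a fitted difference of 0.92 (limma adjusted p = 0.00741), but only 2 of its 3 DRG arrays were above the off-tissue level. Otop1, a proton channel of sour taste cells, differed by 0.74 (limma adjusted p = 0.027) at signals under that level. Both calls were lost on the unscaled signals, which left 1 gene called higher in DRG and 2 in SC, against 3 and 2 under quantile normalization. Kcnk3, a potassium channel that acid closes, was called higher in SC, by at least 1.03-fold, with a fitted difference of -1.03 (limma adjusted p = 0.0421). Only 2 of the 3 SC arrays of Kcnk3 were above the off-tissue level.

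Genes of proteins that bind or modulate these channels were counted next, 14 in all. In DRG 5 were called higher, beside 32.3% of all genes, and in SC 3. The median was 0.08, beside 0.18 over all genes. Quantile normalization made the split 5 against 5, and the unscaled signals 5 against 7. S100a10, an annexin partner that helps to bring channels to the membrane, had signals of 6996, 7275 and 7609.7 in DRG, against 537, 513 and 557 in SC, a log2 difference of 3.73 (limma adjusted p = 3.39e-09). Anxa6, a membrane-binding annexin, differed by 1.71 (limma adjusted p = 9.69e-08). Mdfic, an auxiliary subunit of Piezo channels, was at least 1.89-fold higher in DRG (limma adjusted p = 0.000181), and Magi1, a scaffold protein, differed by 1.22 (limma adjusted p = 1.98e-06). The neuropeptide genes Npff and Pdyn, whose peptides modulate acid-sensing channels, were called higher in SC at -1.09 (limma adjusted p = 0.0279) and -0.90 (limma adjusted p = 0.0185), both at signals under the level in both tissues.

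**Figure D4:**
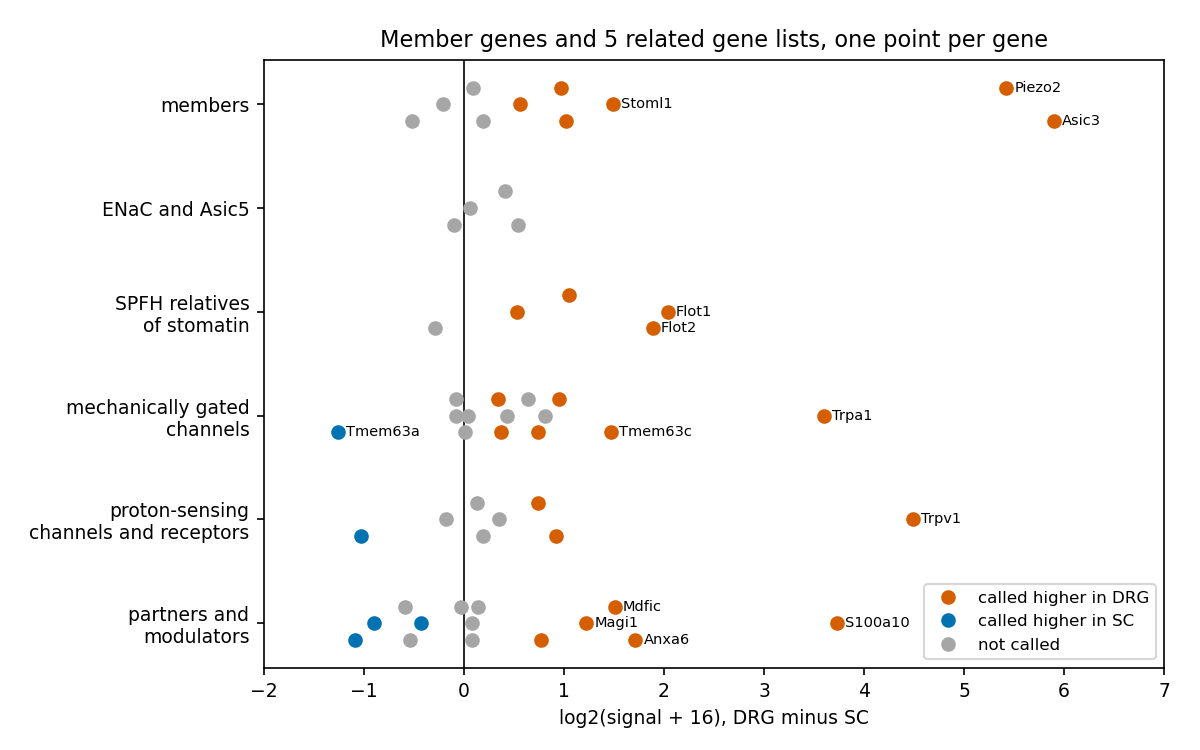
Log2 difference, DRG minus SC, of the 10 member genes and of the genes on 5 related lists, 1 point per gene on its brightest probe set. Orange points were called higher in DRG, blue ones higher in SC, and grey ones were not called. Trpv1, S100a10 and Trpa1 are the related genes nearest to Asic3 and Piezo2.

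Marker genes of several cell types also differed between the tissues. Genes of neurons in both tissues were called higher in DRG for 6 of the 8 genes, with a summed signal of 49123 to 51030 in DRG and 24176 to 26823 in SC. The brightest of these, Stmn2 and Uchl1, differed by 1.33 and 1.60, and both other scalings called the remaining 2 genes higher in SC. Genes of touch and position sense neurons were called mostly higher in DRG, 8 of 10 measured, against 1 higher in SC, with a summed signal of 18752 to 20326 in DRG and 9063 to 9285 in SC. Their brightest called members, Nefh, a neurofilament of large neurons, and Ret, a growth factor receptor, differed by 0.87 (limma adjusted p = 1.53e-05) and 3.25 (limma adjusted p = 5.5e-09). Nefh alone had mean signals of 8372 in DRG and 4560 in SC. Signals of different probe sets are not on a common scale, so a summed signal follows its brightest probe sets and does not measure a cell type. The gene higher in SC was Ntrk2, at -0.65 (limma adjusted p = 0.000323). Pvalb was not called, at 0.06, and both other scalings called it higher in SC, at -0.50 and -0.31. The split of this list was 8 against 2 under quantile normalization and 7 against 2 on the unscaled signals. Of 6 measured Schwann and satellite cell genes, 4 were called higher in DRG, among them Pmp22, a myelin gene, at 1.75, while Mal, which oligodendrocytes also use, was higher in SC at -1.68 and Sox10 was not called. Of 6 fibroblast genes, 5 were called higher in DRG. Central glia ran the other way, with all 6 astrocyte genes and all 6 measured oligodendrocyte genes called higher in SC. The summed signal of the astrocyte genes was 3441 to 3472 in DRG and 25601 to 29238 in SC. The part of these cells in the differences of the members was not tested. For Stom, a red cell protein, the 4 measured erythroid markers were not above the off-tissue level on any array, with a sum of 168 to 307 in DRG and 72.3 to 140 in SC. Alas2, the heme synthesis enzyme of red cell precursors, was the one called, at 1.74 (limma adjusted p = 0.0075).

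Genes closest in pattern to the members called with a log2 difference of at least 1 were sought among 11169 named genes above the level on at least 1 array. Likeness was the distance over the 6 arrays between log2 values centred on each gene's mean, and with only 2 tissues it reflects mainly the tissue difference. For Asic3 and Piezo2 it also depends on the pseudocount, because their SC signals lay under the off-tissue level. Nearest to Asic3 were Scn10a, a sodium channel of nociceptors, at a distance of 0.21, the neurotrophin receptor Ngfr at 0.30 and the sodium channel Scn11a at 0.33. Nearest to Piezo2 were Ppp1r1c at 0.38, Cd55 at 0.47 and Ngfr at 0.60. Nearest to Stoml1 were Ppp1r14b at 0.11, Cd59a at 0.16 and Prkar2a at 0.16, and nearest to Stom were Pstpip2 at 0.10, Nudt5 at 0.12 and Crmp1 at 0.14.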

How the data were processed

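RNA was measured on 6 expression arrays, 3 per tissue. The authors' deposited values are linear ratios made from MAS5 signals, per the submitters' processing notes, without a version. The later steps were read from the values, where the ratios of a probe set have a median of 1 in 91.8% of probe sets (tolerance 1e-05). A deposited ratio was taken as a signal divided by an array factor and a probe-set median. Signals were recovered as the smallest multiples of 0.1 that fit all 6 ratios, for 45094 of 45101 probe sets. In simulated data 98.5% were exact and 1.44% were off by a factor common to all arrays, which alters levels and, through the pseudocount, differences of dim probe sets. This unit differs from the signals assumed when the tests were chosen. Array medians before the authors' scaling were 82.6 to 87.5 in DRG and 108 to 110 in SC, and the number of arrays limits the precision.

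Of the probe sets, 34945 name 1 gene, 932 several and 9160 none. The main test was limma 3.58.1 in R 4.3.3 (lmFit, eBayes with an intensity trend, two-sided) on log2(signal + 16) over 34938 probe sets, adjusted by Benjamini-Hochberg, with calls at an adjusted p under 0.05. Levels below an array's 95th percentile of genes of other organs give only bounds. A call of a gene is that of its probe set with the highest mean. Pairs used exact permutation tests in scipy 1.17.1. The fit was tested on simulated data. All member probe sets are reported. Named from each related list are the called genes, at most 4 by size of difference and 2 that ran the opposite way, from the cell type lists reported in full the 2 brightest called genes, and from the likeness search the 3 nearest genes. Members and lists were chosen with earlier results of these data known. No block was used in the main fit, because the submitters call the samples independent. Same-numbered pools showed correlations of -0.03 to 0.01 between deviations from the tissue means. With 3 arrays per tissue these cannot show whether such pools came from the same mice. Settings varied were the pseudocount, scaling, filter on dim probe sets, variance model, gene summary and single arrays. Some listed genes are not reported here.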

Additional observations from a re-analysis of the deposited data

How the results depend on the processing

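Asic3, Piezo2 (both probe sets), Stoml1, Asic2 and the Stom probe sets 1438910_a_at and 1419097_a_at kept call and direction under every alternative that could be run on them. Their log2 differences ranged from 4.33 to 7.60 for Asic3, from 4.38 to 6.08 for Piezo2 (1442115_at), from 1.07 to 1.56 for Stoml1 and from 0.60 to 1.03 for Asic2. The number of member probe sets called higher in DRG was 8 to 10 and that of genes 5 to 6. The number called higher in SC went to 1, for probe sets and genes alike, under quantile normalization and on the unscaled signals (Asic1, at -0.30 and -0.27) and without DRG replicate 2 (Stoml3). Without single arrays the counts were 9 to 10 probe sets and 6 to 6 genes higher in DRG, and 0 to 1 in SC. Signs of uncalled values turned for Piezo1 on the unscaled signals, to -0.094, and for Stoml3 (1447847_x_at) there, to -0.022. Over single arrays left out, Piezo1 ran from -0.14 to 0.55, Stom (1452522_at) from -0.31 to 0.17 and Stoml3 (1447847_x_at) from -0.087 to 0.12. Without SC replicate 3 Stom (1419098_at) became called, at 1.09. Calls were lost for Stom (1419099_x_at) with the log of the deposited ratio, at 3.36 (limma adjusted p = 0.0582). The replicate block, in which the pools share only a number, gave 12933 calls over all probe sets beside 13287, and among the members it ended only the call of Stom (1449341_a_at, limma adjusted p = 0.0594). The share of calls higher in DRG over all probe sets was 70.9%, or 50.9% under quantile normalization and 42.2% on the unscaled signals. The authors' array factors, relative to their mean, were 0.854 to 0.904 in DRG and 1.12 to 1.14 in SC, so dividing by them raised DRG against SC. Before that division the trimmed mean signals, without the highest and lowest values, were 247.3 to 247.5 on all arrays. Why the factors differed between the tissues, and the cause of the shifts under quantile normalization, was not tested. Dim probe sets, among them those of Asic4, Piezo1 and Stoml3, lie under the off-tissue level, which limits what can be read from them.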
